A study of Pinus pinaster with 30 samples.

Results

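The middle stages of zygotic embryo development in maritime pine (Pinus pinaster) were compared with both ends of the same time course. The middle comprised the 9 biological samples of collection days 5, 11 and 15. The ends comprised the 6 biological samples of days 0 and 25, so that all 15 samples of the series entered the comparison. Day5 held pre-cotyledonary embryos (stages T3 and T4), Day11 early cotyledonary embryos (T4B) and Day15 cotyledonary embryos (T5), whereas Day0 held early embryos (T0 to T2) and Day25 mature embryos (T7). All embryos were the dominant embryo of seeds from open-pollinated plus trees of a clonal orchard, in pools of 60, with no treatment on any day. Cones of 3 to 5 trees were gathered at each date, and the sources used here do not tie a replicate to a tree. The p-values therefore measure the spread between these pooled samples only, part of which may be technical.

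Conifer embryos grow inside the megagametophyte, a haploid tissue that nourishes them. Early embryogeny, with its embryonal mass and suspensor, is followed by the middle period in which the shoot and root meristems and the ring of cotyledons are laid down. In the last period reserves accumulate and the seed prepares for desiccation. A transcript that belongs to organ formation can thus be high in the middle and low at both ends, or the reverse, which a comparison of the first with the last day does not show.

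Each value was a log2 ratio, at 1 spot of a cDNA array, of embryo RNA over a common reference pool that held RNA of every day. A value of 0 thus means the level of the pool, and a difference of 1 means 2-fold. Differences are given as the middle minus the ends, with the standard error (SE) of the fit. Because these are ratios, they cannot rank 1 gene against another by abundance. The clones on the array came from roots and needles of loblolly pine (Pinus taeda), so that paralogs may hybridise to the same spot. Spots are given by their place on the array and by the closest named sequence, with the Arabidopsis locus where the study's annotation pairs one. Of 26496 spots, 14380 had values in 2 or more samples on every day and were tested, and an array held between 9866 and 16204 values. The spread of log2 ratios over the spots tested was lower in the middle samples (SD between 0.31 and 0.467) than in the end samples (0.455 to 0.629). The storage and late embryogenesis list, chosen as a marker of embryos, had 14 spots tested. Of these, 8 were higher and 5 lower on Day25 than on Day0, beside 808 and 632 of all 1702 named spots tested. A ratio to a pool of the same embryos cannot show whether the transcripts of this list were abundant.

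The middle differed from the mean of the ends at 2403 of 14380 spots (16.7%, adjusted p under 0.05 by limma with Benjamini-Hochberg adjustment). It was higher at 1129 spots (7.85%) and lower at 1274 (8.86%). Only 48 of the higher spots (0.334% of those tested) and 87 of the lower spots (0.605%) reached a 2-fold difference. The median absolute difference was 0.16 between the middle and the mean of the ends and 0.40 between Day25 and Day0, and 6773 spots (47.1%) differed between those 2 days. These measures are unlike: opposite steps at the 2 ends cancel in their mean, and the median SE was 0.109 against 0.168. Against each end alone, the median absolute difference of the middle was 0.233 for Day0 and 0.265 for Day25. Without the second Day25 sample the count of spots that differed between the middle and the ends was 1391. In pooled embryos a change in the share of a cell type and a change of transcript level per cell cannot be told apart.

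A difference from the mean of the ends does not place the middle outside both. Among the 1129 higher spots, the middle mean lay above both end means at 877 (77.7%) and between them at 252 (22.3%). The middle differed from Day0 at 4183 spots (29.1%) and from Day25 at 5015 (34.9%) in separate comparisons. Of the higher spots, 365 differed from Day0 only, 491 from Day25 only and 214 were higher than each end. Among the 1274 lower spots, the middle mean lay below both end means at 820 (64.4%) and between them at 454 (35.6%), and 189 were lower than each end. Over all spots tested, 214 spots (1.49%) were higher and 189 (1.31%) lower than each end in those separate comparisons. The middle days differed among themselves at 1019 spots (7.09%). This count was 127 without the third and 215 without the second Day5 sample, 353 without the first Day15 sample, and between 598 and 671 without the third Day0, the second Day11, the second Day15 or the second Day25 sample.

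A stricter test took, at each spot, the larger of the p-values against Day0 and against Day25 and adjusted it over all spots. It was passed by 35 spots (0.243%), of which 18 lay above both ends (0.125%) and 17 below both (0.118%). At 33 of the 35 spots no middle sample overlapped with any end sample. This was so at 124 spots (0.862%) above the ends and 123 (0.855%) below them over all spots tested. The ends differed from each other at 9 of the 35 spots (25.7%), beside 47.1% of all spots tested. The middle days differed at 1 of the 35 (2.86%), beside 7.09% of all spots tested. The count depended on single libraries: it was 3 without the second Day25 sample, between 14 and 22 without the third Day0, the second Day5, the third Day25 or any 1 Day11 sample, and 9 when the middle was taken without Day11. Of the 35 spots, 18 carried an informative name, 8 above and 10 below both ends.

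**Figure D1:**
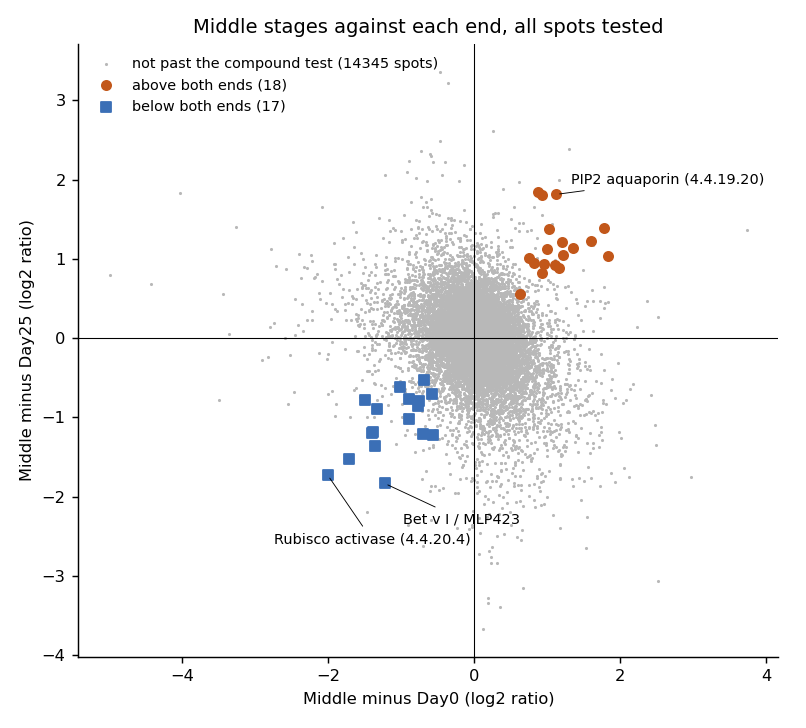
Difference of the middle mean (Day5, Day11 and Day15) from Day0 (x axis) and from Day25 (y axis), in log2 ratio, at each of the 14380 spots tested. The 18 spots above both ends (circles) stand in the upper right and the 17 below both ends (squares) in the lower left, while many of the widest differences of other spots lie along 1 axis.

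Names were available for 1702 of the spots tested, mostly from tables of spots that the study had listed as changing in these samples. Of these named spots, 323 (19%) were higher and 469 (27.6%) lower in the middle. Groups of genes by role are given as counts and medians, which are to be read beside these shares and not as independent evidence. All lists had 60 spots tested or fewer, and several spots can hold 1 gene.

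Among the named spots above both ends, the largest difference from the mean of the ends was at a plasma membrane aquaporin of the PIP2 type (4.4.19.20, AT2G16850), a channel that lets water cross the cell membrane. Its 9 middle samples ran from 0.75 over a median of 1.47 to 1.84. The Day0 samples had 0.09, 0.40 and 0.35, and the Day25 samples -0.54, -0.60 and -0.09. Every middle sample was thus above every end sample. The middle was 2.77-fold higher than the mean of the ends (difference 1.47 ± 0.12 SE, adjusted p = 1.82e-05), by 1.12 over Day0 and 1.81 over Day25 (adjusted p for both ends 0.00845). The call held with each of the 15 samples left out in turn. Another clone of the same pine unigene (7.3.12.3) was 2.58-fold higher (1.37 ± 0.14 SE, adjusted p = 5.73e-05, for both ends 0.0363). The call for both ends held in 5 of the 13 fits that left out 1 sample and could test it. It had 8 middle samples between 0.48 and 1.78, with Day0 at 0.39, 0.60 and 0.06 and Day25 at -0.47, -0.67 and -0.46, so that the lowest middle sample lay below the highest of Day0. These 2 spots are 1 gene and not independent observations.

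The water channel list held 11 spots tested, of which 4 were higher and 4 lower in the middle (36.4% each). Over all named spots 19% were higher and 27.6% lower. The list's median difference was 0.15, against 0.01 over all spots. All 4 higher spots were plasma membrane channels named PIP2. Besides the pair above, spot 6.2.19.16 was higher by 0.56 against each end (0.56 over the mean of the ends, adjusted p = 0.0168), and spot 3.2.11.7 by 0.37. The lower spots were channels of other subfamilies. The gamma tonoplast channel, which serves the vacuole, was lower at both of its spots (-0.75 and -0.50). Its means by day were -0.96, -1.23, -0.75, -0.01 and 1.14 from Day0 to Day25 at spot 3.1.23.12, so that it stood apart from Day25. A further tonoplast channel was lower by 0.50 (adjusted p = 0.00257). A NOD26-like channel (4.4.9.3) was lower by 1.30, with a mean of 1.11 on Day0 and between -1.69 and -1.17 on the other 4 days.

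Monosaccharide transporter 3 (4.3.4.19, AT3G19930), which brings hexoses into cells together with protons, ran from 0.26 over 1.28 to 1.63 in the middle samples. Day0 had 0.14, 0.26 and -0.04, and Day25 had 0.25, -0.29 and 0.03. The middle was 2.09-fold higher (1.06 ± 0.12 SE, adjusted p = 0.000101, for both ends 0.0131), and only the lowest middle sample, of Day5, lay about level with the highest of Day0. This was the 1 spot of the 35 at which the middle days differed (adjusted p = 0.0311), with means of 0.62 on Day5, 1.41 on Day11 and 1.33 on Day15. Inositol transporter 2 (6.1.21.9) was also higher, by 1.24 ± 0.17 SE (adjusted p = 0.000377), by 0.82 over Day0 and 1.66 over Day25, and did not pass the test for both ends (adjusted p = 0.20). Sugar transporter 1 (1.1.8.16) was lower by 1.14 ± 0.20 SE (adjusted p = 0.00244), with a difference of -2.02 against Day0 and -0.27 against Day25. Over the list of sugar and other membrane transporters, 10 of 44 spots were higher (22.7%) and 15 lower (34.1%), with a median difference of 0.01. Over all named spots 19% were higher and 27.6% lower.

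**Figure D2:**
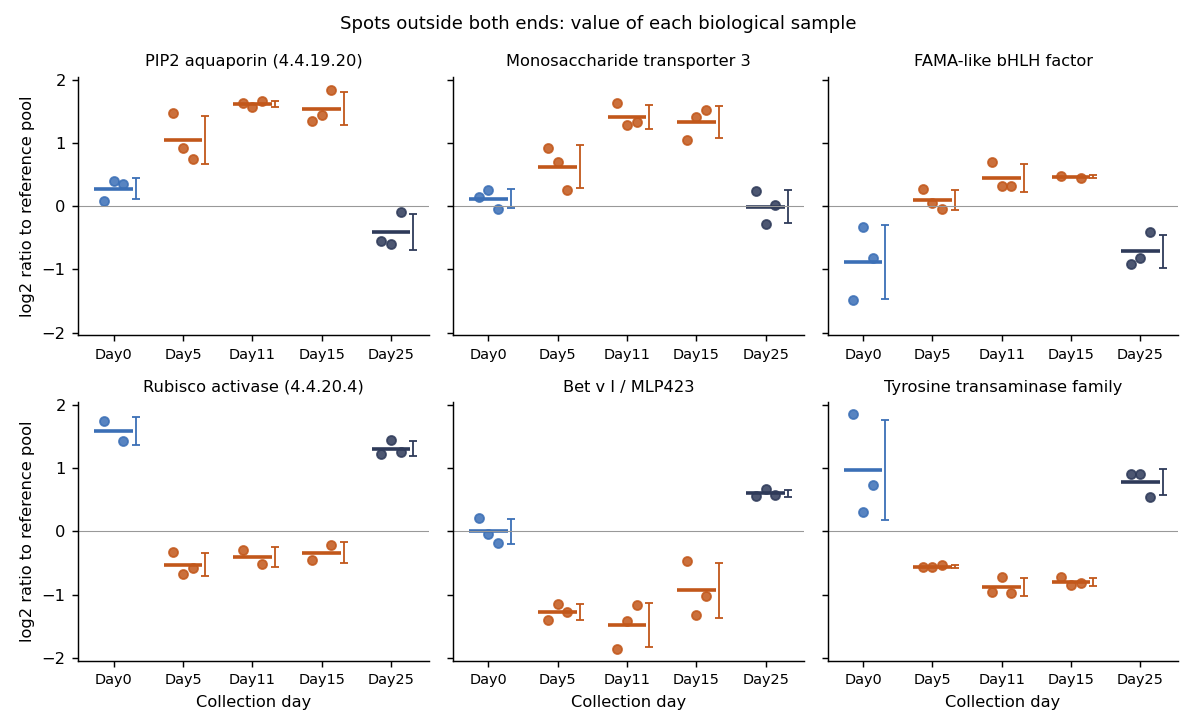
Log2 ratio to the reference pool of each biological sample (points) by collection day at 6 spots past the test for both ends, with the day mean (line) and SD (bar). In the upper row the middle days stand above Day0 and Day25, with Day5 of monosaccharide transporter 3 lowest among its middle days at 0.62, and in the lower row they stand below both.

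A spot matching FAMA (1.4.9.14, AT3G24140), a bHLH transcription factor of stomatal guard cell development in Arabidopsis, was 2.19-fold higher (1.13 ± 0.16 SE, adjusted p = 0.000498, for both ends 0.0381). Its 8 middle samples ran from -0.04 over 0.32 to 0.70. Day0 had -1.49, -0.32 and -0.82, and Day25 had -0.91, -0.82 and -0.42, all below the middle. The name of the pine sequence was bHLH96-like, so the assignment to FAMA rests on the study's table. The call for both ends held in 4 of the 13 fits that left out 1 sample and could test the spot.

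Enzymes above both ends were of several kinds. Phosphomethylpyrimidine synthase (thiaminC, 10.3.22.14, AT2G29630), which makes the pyrimidine part of vitamin B1, ran from 0.21 over 0.47 to 0.72 in the middle. It had -0.59 and -0.30 on Day0 and -0.31, -0.39 and -0.32 on Day25. The difference was 0.87 ± 0.08 SE (1.83-fold, adjusted p = 4.74e-05, for both ends 0.00845), with no overlap. An AMP-dependent synthetase and ligase (2.1.3.19, AT3G48990), of the family of acid-activating enzymes, had 8 middle samples between -0.41 and 0.87. Its Day0 values were -1.15, -0.79 and -0.50 and its Day25 values -0.85 and -0.80 (difference 1.20 ± 0.14 SE, adjusted p = 0.000273, for both ends 0.0263). A DUF579 protein (6.1.16.4, AT5G67210), of a family that holds xylan-modifying methyltransferases in Arabidopsis, ran from -0.02 over 0.58 to 1.08. Day0 had -0.78, -0.36 and -0.33, and Day25 had -0.37, -1.03 and -1.10 (1.20 ± 0.15 SE, adjusted p = 0.000199, for both ends 0.0347). Its call for both ends held in 5 of the 15 fits that left out a sample. All 3 enzymes were below the pool in every end sample.

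An HPP integral membrane protein (2.2.2.20) varied little in the middle, from 0.23 to 0.57, against -1.13, -0.37 and -0.21 on Day0 and -0.58, -0.63 and -0.43 on Day25 (0.94 ± 0.12 SE, adjusted p = 0.000178, for both ends 0.0143). Among spots without an informative name, 5.4.9.7 had the largest difference of all 35 in this direction (1.59 ± 0.19 SE, adjusted p = 0.000161), with day means of 0.83, 0.94 and 0.07 on Day5, Day11 and Day15, against -1.17 on Day0 and -0.77 on Day25. Spot 2.2.9.5, which matched a spruce sequence of unknown role, was higher by 1.44 ± 0.14 SE (adjusted p = 3.47e-05), by 1.84 over Day0 and 1.04 over Day25.

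In the opposite direction, Rubisco activase, the chloroplast chaperone that frees the active site of the carbon-fixing enzyme, had the smallest p for both ends of all spots tested. At spot 4.4.20.4 (AT2G39730) the 7 middle samples with a value ran from -0.68 over -0.45 to -0.22. Day0 had 1.74 and 1.43 in 2 samples, and Day25 had 1.22, 1.45 and 1.26. The middle was 3.65-fold lower (-1.87 ± 0.11 SE, adjusted p = 6.95e-06), with -2.01 against Day0 and -1.73 against Day25 (adjusted p for both ends 9.96e-05). The ends themselves differed by -0.28 as Day25 minus Day0 (adjusted p = 0.184). A clone of a second Rubisco activase unigene (8.4.20.21) was 2.46-fold lower (-1.30 ± 0.16 SE, adjusted p = 0.000184, for both ends 0.0259). Its middle samples ran from -0.48 over -0.11 to 0.66, below Day0 with 1.73, 0.74 and 1.43 and Day25 with 0.78, 1.24 and 1.29. Whether each transcript also hybridised to the spot of the other was not tested.

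The photosynthesis and chlorophyll list held 14 spots tested, of which 8 were lower and 2 higher (median difference -0.43), beside 27.6% lower and 19% higher over all named spots. Its lower members followed different courses. Phosphoribulokinase (8.2.20.9), which regenerates the sugar that Rubisco uses, was lower by 0.88 (adjusted p = 4.5e-05), with -0.48 against Day0 and -1.28 against Day25 (adjusted p for both ends 0.122). A light-harvesting protein of photosystem I (5.2.20.10) was lower by 0.95 and stood at -1.22 on Day0, near its middle means, and at 0.78 on Day25. Photosystem I subunits O, D and F had differences of -0.71, -0.54 and -0.32, and passed against Day0 but not against Day25. Protochlorophyllide oxidoreductase (9.4.2.12), which makes chlorophyllide in light, was higher by 0.86 ± 0.13 SE (adjusted p = 0.00078), with 1.42 over Day0 and 0.30 over Day25.

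A tyrosine transaminase family member (8.1.16.13, AT5G53970), an enzyme of tyrosine breakdown and tocopherol precursors, was 3.08-fold lower (-1.62 ± 0.17 SE, adjusted p = 5.76e-05, for both ends 0.00845). The middle samples were tightly spaced, from -0.98 over -0.72 to -0.53. Day0 was scattered at 1.86, 0.31 and 0.74 and Day25 had 0.91, 0.90 and 0.54, all above the middle. A Bet v I family protein close to MLP423 (7.2.20.23, AT1G24020), of a family of small ligand-binding proteins to which the birch pollen allergen belongs, was 2.89-fold lower (-1.53 ± 0.13 SE, adjusted p = 1.86e-05, for both ends 0.00845). It ran from -1.86 over -1.27 to -0.46 in the middle, with 0.22, -0.04 and -0.18 on Day0 and 0.57, 0.67 and 0.58 on Day25. The difference was -1.23 from Day0 and -1.83 from Day25, and the call held with each of the 15 samples left out in turn. Together with PIP2 spot 4.4.19.20 and Rubisco activase spot 4.4.20.4, this was 1 of the 3 spots that passed without the second Day25 sample.

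Membrane and signalling proteins below both ends included an AWPM-19-like protein (2.2.21.4, AT1G29520), of a plasma membrane family known from wheat cells treated with abscisic acid. Its middle samples ran from -1.09 over -0.73 to -0.38, with 0.89, 0.00 and 1.10 on Day0 and 0.48, 0.88 and 0.61 on Day25 (-1.36 ± 0.15 SE, adjusted p = 8.18e-05, for both ends 0.00845). A Ras-related small GTPase (6.2.23.10, AT4G19640), of the family that directs vesicle traffic, had 8 middle samples between -0.70 and -0.08. It had 1.25 and 0.69 on Day0 and 0.44, 0.70 and 0.46 on Day25 (-1.12 ± 0.12 SE, adjusted p = 0.000135, for both ends 0.0238). Purine permease 1 (9.1.2.23, AT1G28230), a carrier of purines and cytokinins in Arabidopsis, was lower by 0.95 ± 0.10 SE (adjusted p = 4.74e-05, for both ends 0.0278), and its call for both ends held in 8 of 15 fits that left out a sample. A calmodulin-binding receptor-like kinase (7.2.18.10, AT4G00330) was lower by 0.89 ± 0.09 SE (adjusted p = 3.47e-05). Its p for both ends, 0.0491, stood just inside the threshold, and the call held in 1 of 15 fits that left out a sample.

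Of the remaining spots below both ends, UDP-glucose 4-epimerase (9.1.14.10, AT1G12780), which interconverts UDP-glucose and UDP-galactose for cell wall polymers, was 2.44-fold lower (-1.29 ± 0.13 SE, adjusted p = 6.59e-05, for both ends 0.00845). Its 8 middle samples ran from -0.81 to -0.04, with 1.34, 0.67 and 0.74 on Day0 and 0.67, 0.85 and 0.63 on Day25. A rubber elongation factor protein (5.1.22.19, AT3G05500), of a family found on lipid droplets, was lower by 0.95 ± 0.13 SE (adjusted p = 0.000358, for both ends 0.032), a call for both ends that held in 7 of the 15 fits with a sample left out. A spot of locus AT3G47160 (9.1.6.6) was lower by 1.14 ± 0.11 SE (adjusted p = 4.69e-05), more against Day0 (-1.50) than against Day25 (-0.78), and its call for both ends also held in 7 of 15. Spot 3.3.9.1, without a name, was lower by 0.83 ± 0.09 SE (adjusted p = 6.59e-05), with end samples between 0.32 and 0.57.

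**Figure D3:**
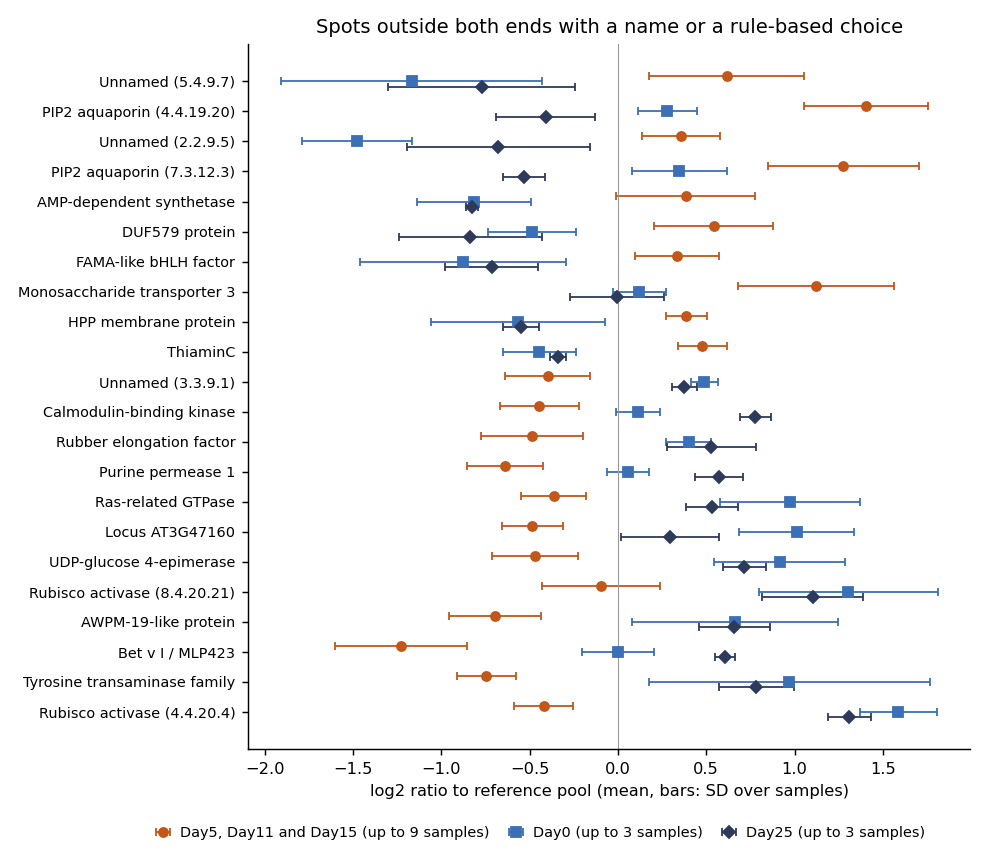
Mean log2 ratio to the reference pool (x axis) of the middle samples (circles), Day0 (squares) and Day25 (diamonds) at 22 spots past the test for both ends, with SD over samples as bars. The middle stands right of both ends for the upper 10 spots and left of both for the lower 12, and the middle of PIP2 spot 4.4.19.20 stands 1.12 from Day0 and 1.81 from Day25.

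The chromatin and small RNA regulators had 12 of 24 spots tested, with 7 higher in the middle (58.3%), 1 lower (8.33%) and a median difference of 0.34. Over all named spots 19% were higher and 27.6% lower. The study had listed these regulators as changing over time in the same samples. Argonaute AGO1 (2.2.5.12), which carries microRNAs, was higher by 0.83 ± 0.18 SE (adjusted p = 0.00836), and AGO9 (1.4.19.11) by 0.53 ± 0.15 SE (adjusted p = 0.0292). Both passed against Day0 and did not pass against Day25. AGO1 stood at -1.30 on Day0, 0.08 on Day5, 0.83 on Day11, 1.11 on Day15 and 0.98 on Day25. The Polycomb methyltransferase CLF and DDL, a factor of microRNA processing, were higher by 0.41 and 0.40 and likewise passed against Day0 only. Dicer DCL1, which cuts microRNA precursors, and DMAP1 were higher by 0.29 and 0.40 and passed against Day25 only. Only the histone deacetylase HDA2 (11.2.17.19) had all its middle samples above all end samples (0.46 ± 0.08 SE, adjusted p = 0.00325), by 0.37 over Day0 and 0.55 over Day25, without passing the test for both ends (adjusted p = 0.29). BSH, a subunit of chromatin remodelling complexes, was lower by 0.36 (adjusted p = 0.0499). Its call held in 4 of the 13 fits that left out 1 sample and could test it, and that of AGO9 in 7 of 13. CHC1, INO80, HDA9 and RAD5 had differences between 0.10 and 0.26 that did not pass.

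Among transcription factors 15 of 23 spots were tested, with 5 higher (33.3%), 9 lower (60%) and a median difference of -0.45. Over all named spots 19% were higher and 27.6% lower. The study had chosen these factors from the same samples for a step of at least 2-fold between consecutive days. Their difference from an end thus partly restates that choice. FAMA, described above, was the only one past the test for both ends. A bHLH factor of locus AT1G68920 (6.4.7.23) was higher by 1.11 ± 0.13 SE (adjusted p = 0.000143), by 1.62 over Day0 and 0.60 over Day25 (adjusted p for both ends 0.21). NF-YC2, a subunit of the CCAAT-binding NF-Y complex, was higher by 0.99 ± 0.20 SE (adjusted p = 0.00564), and a bHLH factor of locus AT3G19500 by 0.91 ± 0.18 SE (adjusted p = 0.00441). Both of these passed against Day25 and not against Day0. Of the 9 lower factors, 7 passed against Day25 only and 2 against Day0 only. ILR3, a bHLH factor of iron and auxin-conjugate responses (5.2.18.9), was lower by 1.32 ± 0.21 SE (adjusted p = 0.000994), with -0.23 against Day0 and -2.40 against Day25. The NAC factors ATAF1 and ANAC075 had differences of -0.96 and -0.65 and likewise passed against Day25 only. WRKY28 and FTM3 were the pair that passed against Day0 only (-1.38 and -1.61). ANT, an AP2 factor of organ growth, stood at -1.86, -1.33, -0.02, 0.83 and 0.86 from Day0 to Day25, and its difference of 0.33 did not pass (adjusted p = 0.051).

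**Figure D4:**
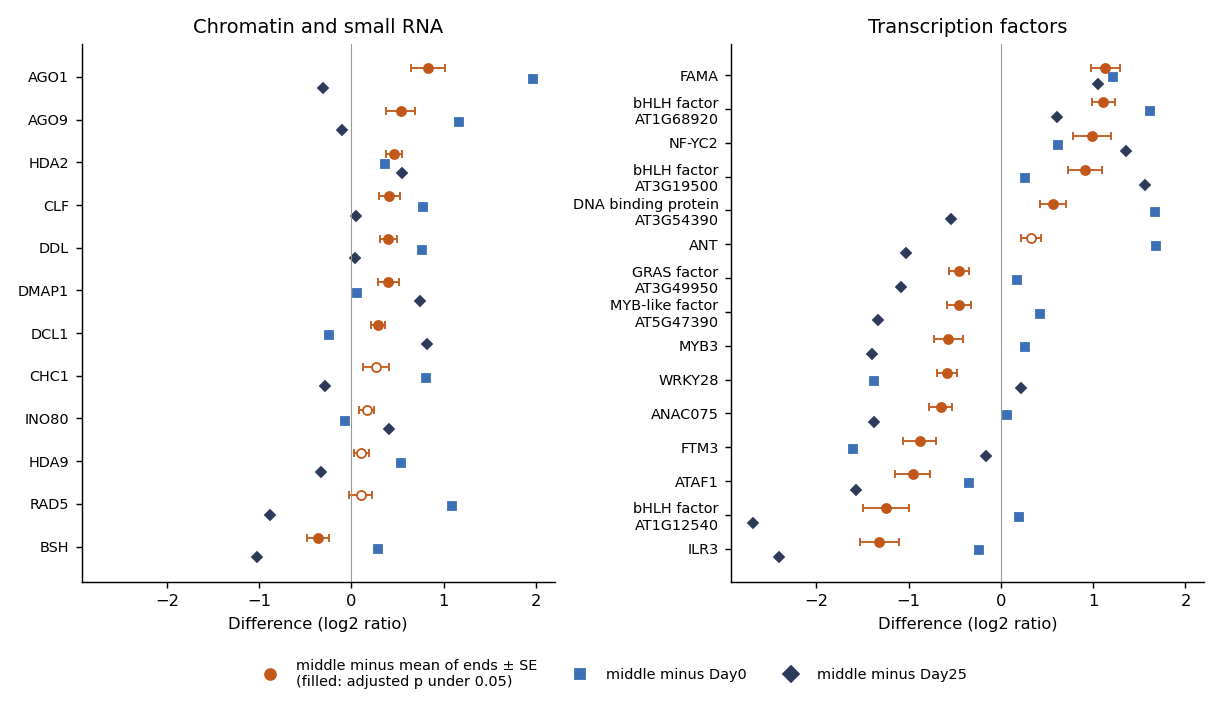
Difference of the middle from the mean of the ends (circles with SE bars, filled where the adjusted p was under 0.05), from Day0 (squares) and from Day25 (diamonds), in log2 ratio, for 12 chromatin and small RNA spots and 15 transcription factor spots. FAMA, with 1.21 over Day0 and 1.05 over Day25, and HDA2 have all 3 symbols close together on 1 side of 0, while AGO1 (1.97 and -0.31) and ILR3 (-0.23 and -2.40) differ from 1 end only.

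In the auxin list 5 of 13 spots were higher (38.5%) and 3 lower (23.1%), beside 19% and 27.6% of all named spots (median difference 0.32). The auxin receptor AFB5 (2.4.5.10) was higher by 1.21 ± 0.14 SE (adjusted p = 0.000266), by 1.77 over Day0 and 0.64 over Day25 (adjusted p for both ends 0.36). The efflux carrier PIN3 (3.2.4.5), which moves auxin out of cells, was higher by 0.72 ± 0.14 SE (adjusted p = 0.00397). The strongest fall was that of an auxin-regulated protein close to XB3 ortholog 5 (5.3.7.20), lower by 1.59 ± 0.18 SE (adjusted p = 0.000118), with a mean of 1.19 on Day0 and between -1.87 and -1.44 thereafter. In the abscisic acid, gibberellin and ethylene list 6 of 14 spots were higher (42.9%) and 1 lower (7.14%), with a median difference of 0.26. The abscisic acid receptor PYL8 (3.4.9.1) was higher by 0.99 ± 0.14 SE (adjusted p = 0.000511), by 0.83 over Day0 and 1.14 over Day25, just short of the test for both ends (adjusted p = 0.072). ACC oxidase (3.1.10.1), the last enzyme of ethylene synthesis, was higher by 0.87 (adjusted p = 0.000341, for both ends 0.0627). A gibberellin-regulated family member (5.2.7.18) was lower by 0.94 ± 0.21 SE, with means of 1.08, -0.81, -2.72, -3.02 and -3.58 from Day0 to Day25.

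Of 10 loci that the study discusses, 9 had a spot tested, with 16 spots in all. Of these spots, 1 was higher (6.25%) and 4 lower (25%), beside 19% and 27.6% of all named spots. The higher one was PIN3. NDL1 (5.2.21.11), a regulator of auxin transport in Arabidopsis, was lower by 1.00 ± 0.15 SE (adjusted p = 0.000631), with -1.26 against Day0 and -0.74 against Day25 and with every middle sample below every end sample (adjusted p for both ends 0.17). The other 3 were spots of EMB101, a GDP-mannose pyrophosphorylase, at -0.40, -0.37 and -0.32, all of which passed as lower than Day0. Another 2 EMB101 spots at -0.04 each did not pass, nor did spots of AUX1, MSI1, UBC2, SAHH1, GNOM and EIN2, with differences between -0.09 and 0.33.

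In the replication, histone and cell cycle list all 8 spots were lower on Day25 than on Day0, beside 632 of 1702 named spots. In the middle 3 of 8 were higher than the mean of the ends (37.5%) and 0 lower (median difference 0.49). Over all named spots 19% were higher and 27.6% lower. The list's median difference was -0.35 from Day0 and 1.35 from Day25. Histone H1-3 (3.1.15.14) was higher by 1.02 ± 0.15 SE (adjusted p = 0.0007) and stood at 0.27, 0.36, 0.03, 0.00 and -2.06 from Day0 to Day25.

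Cell wall enzymes had the most lower spots by count, 23 of 48 (47.9%, beside 27.6% of all named spots). By share, terpene and sterol enzymes (66.7%), transcription factors (60%), the photosynthesis list and glutathione transferases (57.1% each) exceeded them. Of the cell wall enzymes 4 were higher (8.33%, beside 19% of all named spots), and the median difference was -0.38. Their median difference was -0.85 from Day0 and 0.43 from Day25. On Day25, 38 of the 48 were lower than on Day0, beside 632 of 1702 named spots. Of the 23 lower spots, 2 were lower than each end in the separate comparisons. Xyloglucan endotransglucosylase/hydrolase 13 (5.4.7.15), which cuts and rejoins wall xyloglucan, was lower by 1.88 ± 0.25 SE (adjusted p = 0.000508), with a mean of 2.62 on Day0 and of -1.17, -1.83, -2.45 and -2.50 on the later days. Expansin-like A1 (4.3.11.18) was one of these, with -0.90 against Day0 and -2.36 against Day25 (difference from the ends -1.63, adjusted p = 3.1e-05, for both ends 0.0891). Expansin A1 (4.3.11.7), which loosens walls, ran the other way, higher by 1.24 ± 0.19 SE (adjusted p = 0.000999), by 0.93 over Day0 and 1.56 over Day25 (adjusted p for both ends 0.15).

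**Figure D5:**
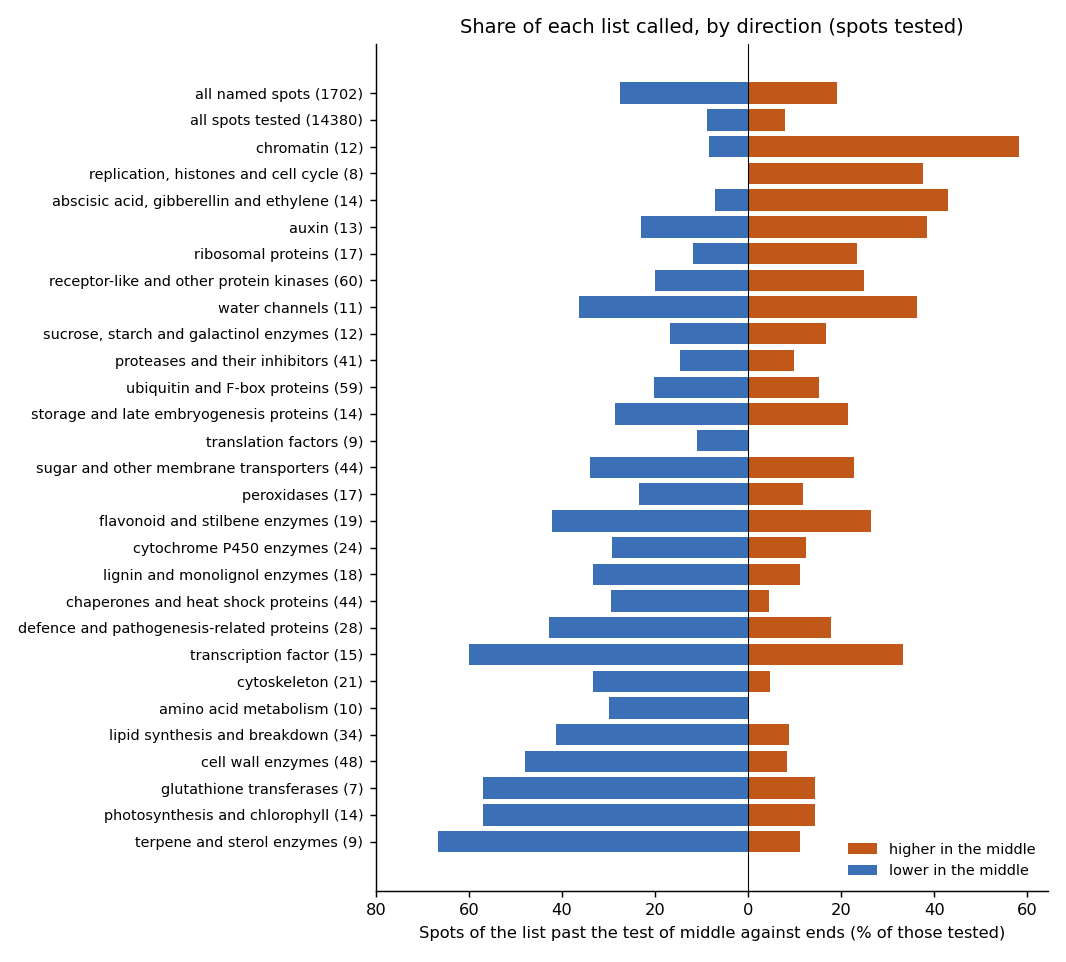
Share of each list's tested spots (in %, number tested in parentheses) that were higher (right) or lower (left) in the middle than the mean of the ends. The shares of all named spots (19% higher, 27.6% lower) stand on top for reference; the chromatin list has 7 of 12 spots on the right, and the cell wall list 23 of 48 on the left.

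Terpene and sterol enzymes had 6 of 9 lower (66.7%) and 1 higher (11.1%), beside 27.6% and 19% of all named spots (median difference -0.64). Of the 6, 5 were spots of HMG-CoA reductase, which feeds sterol and terpene synthesis, at -0.89 to -0.64, and all 5 passed against Day25 and not against Day0. The higher one, levopimaradiene abietadiene synthase (6.2.3.7), a resin acid enzyme, was higher by 1.39 ± 0.28 SE (adjusted p = 0.0041), by 2.52 over Day0 and 0.27 over Day25. In the chaperone list 13 of 44 were lower (29.5%) and 2 higher (4.55%). A small heat shock protein (3.1.9.4) was lower by 1.58 ± 0.32 SE (adjusted p = 0.00484) and differed by -3.35 from Day25. Among storage and late embryogenesis proteins 4 of 14 were lower (28.6%) and 3 higher (21.4%), near the shares of all named spots. Glutelin type-A (4.1.2.22) was lower by 1.53 ± 0.22 SE (adjusted p = 0.000508), with -2.83 against Day0. A late embryogenesis protein (4.4.22.23) was higher by 0.69 ± 0.16 SE (adjusted p = 0.00966), by 1.78 over Day0.

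Over all named spots 27.6% were lower and 19% higher. Defence proteins had 12 of 28 lower (42.9%) and 5 higher (17.9%), and lipid enzymes 14 of 34 (41.2%) and 3 (8.82%). Flavonoid and stilbene enzymes had 8 of 19 lower (42.1%) and 5 higher (26.3%). Cytochrome P450 enzymes had 7 of 24 lower (29.2%) and 3 higher (12.5%). A P450 of the 71A type (5.4.9.1) had the largest fall of any named spot, -2.14 ± 0.17 SE (adjusted p = 1.12e-05), with -3.50 against Day0 and -0.78 against Day25 (adjusted p for both ends 0.22). A lipase family enzyme (2.2.13.16) had all middle samples below all end samples (-1.13 ± 0.10 SE, adjusted p = 1.91e-05) and a p for both ends of 0.055. Protein kinases were 15 of 60 higher (25%) and 12 lower (20%), and ubiquitin and F-box proteins 9 of 59 higher (15.3%) and 12 lower (20.3%). Ribosomal proteins had 4 of 17 higher (23.5%) and 2 lower (11.8%), and translation factors 0 of 9 higher and 1 lower (11.1%).

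At the named spots past the test whose middle mean lay between the end means, the largest differences were as follows. An antimicrobial protein (1.3.22.10) and germin-like protein 7 (7.2.13.7), of a family of extracellular cupins, were higher by 1.44 ± 0.19 and 1.43 ± 0.15 SE (adjusted p = 0.000334 and 6.47e-05). Both differed little from Day0 (-0.47 and -0.35, not passed) and lay above Day25 (3.36 and 3.22), as did histone H1-3, the next in size. A phi-class glutathione transferase (7.1.21.13), a detoxifying enzyme, was lower by 2.10 ± 0.19 SE (adjusted p = 1.91e-05), with -4.99 against Day0, and stood at 1.37 on Day0 and between -4.41 and -2.90 afterwards. Next in size among the lower spots was the xyloglucan endotransglucosylase/hydrolase described above. After it came a glucan endo-beta-glucosidase (7.2.9.3), which splits callose-type glucans. It was lower by 1.78 ± 0.37 SE (adjusted p = 0.00655), with -2.60 on Day0 and 1.19 on Day25.

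A quadratic curve over collection days, the kind of model used for the time course in the study's methods, passed at a false discovery rate of 0.01 and an R-squared of at least 0.7 at 4046 spots (28.1%). The quadratic term alone passed at 2371 spots (16.5%), with a negative sign at 1156 spots (8.04%) and a positive sign at 1215 (8.45%). It passed at all 35 spots outside both ends, at 866 of the 1129 higher spots (76.7%) and at 997 of the 1274 lower spots (78.3%). These 2 models were fitted to the same samples and are not independent of each other.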

How the data were processed

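Embryo RNA, amplified in 2 rounds and labelled with Cy3, was hybridised against a common Cy5 reference pool on 30 arrays, 2 per biological sample, with no dye swap, so a dye effect is shared by all days. The deposited table holds log2 ratios that the authors made in Limma from spots without background correction by print-tip loess within arrays and cyclic loess between arrays. The sign, embryo over reference, was checked against the deposited intensity values of each array, from which recomputed ratios correlated with the table at 0.993 to 0.999. Of 26496 spots, 6819 had no value in the table. The number of arrays limits the precision.

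Technical arrays were averaged. limma 3.58.1 in R 4.3.3 (with statmod 1.5.0 and jsonlite 2.0.0) fitted a mean per day to all 15 samples. The contrast was the mean of the Day5, Day11 and Day15 means minus the mean of the Day0 and Day25 means. Spots needed values in 2 or more samples on every day, and p-values were adjusted by the Benjamini-Hochberg method over all 14380 spots (threshold 0.05). The test for both ends took the larger of the p-values against Day0 and Day25 where both differences had 1 sign, and 1 otherwise. The scripts were tested on simulated data. No batch or scan date is given in the sources used here.

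Names came from the annotation tables of the study. By rule, spots were selected from the study's regulator tables and from 10 loci of its text. The rule added up to 10 of the largest named differences in each direction past the test for both ends (1 spot per unigene). With only 8 such spots above and 10 below, it took them all, the second PIP2 clone as a repeat. It also took the largest in each direction in every list. Further, it took 2 unnamed spots and 3 between the ends in each direction. The text describes only part of this selection. Several tested transcription factors appear only in the plot of chromatin and transcription factor spots. No member is named for some lists, such as the cytoskeleton, peroxidase, lignin, protease and sucrose lists. The flavonoid, ribosomal and ubiquitin lists are given as counts only. Other named members of a list (water channels, photosynthesis, cell wall, ACC oxidase, HMG-CoA reductase) were chosen after their values were seen. The 25 word lists and all members were chosen with earlier results of these data known. An iron transporter wording was taken out of the transporter list because it matched AGO1. Spots with fewer values (20 of 47 regulator spots) were not tested. Python 3.11.15, pandas 2.3.3, numpy 2.4.6 and matplotlib 3.10.9 made tables and plots. Alternatives were other sources of values, background correction, scaling, filters, group models, sets of middle days, a replicate block and single samples left out.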

Additional observations from a re-analysis of the deposited data

Results flagged for a closer look

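At the 22 spots outside both ends that were named or chosen by rule, the middle and the end samples were searched for a sample far from the others, which made 44 groups of samples. A sample stood apart in 2 of them. The limit used gives about 1 in 20 by chance for draws from 1 population. These groups pooled days that can differ, so that rate need not hold here. At Rubisco activase spot 8.4.20.21 the third Day5 sample had 0.663, against -0.478 to 0.0234 in the other 8 middle samples, a gap of 0.561 of the whole range. It was still below every end sample. At UDP-glucose 4-epimerase spot 9.1.14.10 the first Day0 sample had 1.34, against 0.627 to 0.853 in the other 5 end samples, a gap of 0.684 of the range.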

How the results depend on the processing

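None of the 105 named spots past the test of the middle against the ends changed direction under any alternative that was run. At the 16 that did not pass, 33 of 463 values changed sign, at 8 spots (RAD5, UBC2, 2 of EMB101, ANT, MSI1 and 2 of AUX1). Without Day15 the difference of ANT was -0.17, against 0.33, and that of RAD5 -0.02, against 0.10. Over 121 named spots, 3276 of 3480 alternative values kept their side of the threshold for the middle against the ends, 191 lost it and 13 gained it. These values do not cover the test for both ends, whose calls were less stable. Those calls held at 34 of 35 spots with scaled arrays, at 9 of 35 without Day11 and at 3 of 33 without the second Day25 sample. Without quality marks the counts were 4828 spots for the middle against the ends (2172 higher, 2656 lower, 278 at least 2-fold), 81 outside both ends (42 above, 39 below), 13432 for Day25 against Day0, 2649 among the middle days and 7799 for the curve, over 26496 spots. With values in all 3 samples, which leaves 6271 spots, they were 1188 (520 higher, 668 lower, 54 at least 2-fold), 2985, 562 and 1721. A value in at least 1 sample gave 215 at least 2-fold. Group means without the day gave 452 (219 higher, 233 lower, 71 at least 2-fold) and 23 outside (9 above). The middle without Day11 gave 1387 (618 higher, 769 lower) and 9 outside (3 above, 6 below), and without Day5 30 above. Scaled arrays gave 64 outside (40 below, so 37.5% above, against 51.4%) and 2298 among the middle days. The 30 arrays as rows, with an estimated correlation of 0.664 between technical replicates, gave 81 outside (41 above, 40 below) and 1682. The cause of these shifts was not tested, apart from the number of spots or samples entered.

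With 1 sample left out, the counts ranged from 1391 to 2450 (higher 595 to 1116, lower 796 to 1334, at least 2-fold 99 to 145), outside both ends from 3 to 52 (above 1 to 22, below 2 to 31), Day25 against Day0 from 5114 to 6150, among the middle days from 127 to 1352 and for the curve from 3178 to 3965. The lowest counts were those without the second Day25 sample, except among the middle days, where it was the third Day5 sample. Of 33 spots outside both ends that could be tested without that Day25 sample, 3 held.

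The labels give no shared origin to a replicate number, and whether samples with the same number shared a step was not tested. Deviations of samples with the same number correlated between -0.377 and 0.499, over 0.1 in 14 of 30 pairs. All 3 correlations were over 0.1 for 2 of the 10 pairs of days, Day0 with Day11 (0.131 to 0.159) and Day0 with Day25 (0.113 to 0.499). With the replicate number as a block, 17 spots lay outside both ends (7 above, 10 below), of which 16 were among the 35. The named spots not past the threshold with the block had adjusted p-values for both ends of 0.053 to 0.108, the highest at the AMP-dependent synthetase and FAMA (0.092); the others were PIP2 spot 7.3.12.3, DUF579, Ras-related GTPase, purine permease, receptor-like kinase, rubber elongation factor and AT3G47160. The curve, the ends and the middle days gave no value under alternatives that redefine the groups, and the curve none with the block, the 30 arrays or robust moderation.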
